A study of Mus musculus with 4 samples.

Results

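Adam23, Ptprr, Paqr5, Cd109, Lgals3, Rcan2, Emilin2, Stmn2, Cdh13 and Fez1 are 10 of the 28692 genes counted in single mesenchymal stromal cells (MSC) of adult mouse intestine. They were chosen because earlier results of these libraries placed them near exclusively in colonic fibroblasts (FB) when set against small intestinal FB. Their colon over small intestine difference in FB is therefore a description here, and the question is whether smooth muscle cells (SMC), pericytes and endothelial cells share it. Libraries came from the lamina propria of untreated female C57BL6/Nrj mice aged 8 to 10 weeks, in 2 experiments with 3 mice each, with 2 libraries from the small intestine and 2 from the colon. The muscularis externa was stripped away, so the SMC are those left in the inner wall. Sorted cells were live and Itgb1+, and lacked CD45, Ter119, CD31, BP3, EpCAM and L1CAM. That sort removes endothelium by CD31, so the endothelial cells described here are those that escaped it, and all groups share this selection. Nothing in the labels says that the mice of one group carried any allele or treatment the other lacked.

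FB build and remodel connective tissue, while SMC and pericytes are contractile cells that wrap glands and small vessels, and endothelial cells line those vessels. In the developing gut, position along the tube is set by nested expression of homeobox genes in the mesenchyme, and adult stromal cells keep part of that positional pattern. The 10 genes do not form a pathway. Adam23, a metalloprotease-like protein that lacks protease activity, acts in cell adhesion, as does Cdh13 (T-cadherin), which is anchored in the membrane by a lipid. Cd109, also lipid-anchored, binds TGF-β and its receptors, Paqr5 is a membrane progestin receptor, and Ptprr is a tyrosine phosphatase that acts on MAP kinases. Lgals3 (galectin-3) binds galactose-containing glycans and Emilin2 is an elastin-associated matrix glycoprotein. Inside the cell, Rcan2 regulates the phosphatase calcineurin, Stmn2 destabilises microtubules and Fez1 links cargo to kinesin motors. Stmn2 and Fez1 are best known from neurons.

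The genes lie on 7 chromosomes (GRCm38, the assembly also called mm10; GENCODE annotation), each a protein-coding gene. Adam23 spans chr1:63445891-63596276 and Stmn2 spans chr3:8509360-8561606. Cdh13 covers chr8:118283733-119324921, and Ptprr covers chr10:116018213-116274932. Lgals3 lies at chr14:47367751-47386160. Chromosome 9 holds Fez1 (36821864 to 36878924), Paqr5 (61953481 to 62026856) and Cd109 (78615546 to 78716253), and chromosome 17 holds Rcan2 (43801351 to 44039516) and Emilin2 (71252172 to 71311978). Neighbouring pairs on one chromosome were at least 16588689 bases apart, so none of the 10 are adjacent genes. Annotated genes overlapped 7 of the 10, on the opposite strand for 6 of them and on both strands for Cdh13.

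Promoter sequence from RefSeq (GRCm38.p6) was matched for 7 of the 10 genes, with 15 start sites between them. The 250 bases before each start were searched on both strands for TTTATNG, a core bound by caudal-type and posterior Hox proteins, for TTTATGA, another posterior Hox-type core, and for TGANTCA, the AP-1 site. TTTATNG and TTTATGA share their first 5 letters, and no letter string meets both. None of the 15 held TTTATNG, which 9.81% of all 32851 promoters in the table hold. TTTATGA was in 2 of 15, at 1 start each of Ptprr and Fez1, against 3.35% of all promoters, and TGANTCA was in 1 of 15, at a start of Rcan2, against 6.75%. Of the windows free of annotated exons, 3 are shown because the genes behind them had different patterns across cell classes in the results below: Adam23 (FB and SMC of the colon), Ptprr (PDGFRαhi FB of the colon, endothelium of both intestines) and Rcan2 (SMC and pericytes of both intestines). Each is on the plus strand and written 5′ to 3′, and capitals mark TTTATGA on either strand in Ptprr and TGANTCA in Rcan2. They cover chr1:63445641-63445890, chr10:116143648-116143897 and chr17:43952749-43952998.
Adam23: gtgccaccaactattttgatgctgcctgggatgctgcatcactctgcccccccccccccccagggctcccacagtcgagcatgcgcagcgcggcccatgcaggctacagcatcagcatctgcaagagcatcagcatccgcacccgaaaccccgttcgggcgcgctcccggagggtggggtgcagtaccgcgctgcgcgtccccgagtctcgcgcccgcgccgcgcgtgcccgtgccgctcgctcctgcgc
Ptprr: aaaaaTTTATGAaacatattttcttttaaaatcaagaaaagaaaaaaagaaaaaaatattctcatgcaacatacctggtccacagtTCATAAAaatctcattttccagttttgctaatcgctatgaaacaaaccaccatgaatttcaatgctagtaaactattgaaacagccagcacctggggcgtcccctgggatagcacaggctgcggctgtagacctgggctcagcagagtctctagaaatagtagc
Rcan2: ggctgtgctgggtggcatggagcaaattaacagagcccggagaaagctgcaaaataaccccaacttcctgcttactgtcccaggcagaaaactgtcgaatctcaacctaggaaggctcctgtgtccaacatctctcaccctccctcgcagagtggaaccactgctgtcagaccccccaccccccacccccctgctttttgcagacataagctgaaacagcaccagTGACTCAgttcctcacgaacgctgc
The Adam23 window was 70.4% G and C, the Ptprr window 38% and the Rcan2 window 55.2%. A match is a description of these letters and says nothing about binding.

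The 4 libraries held 14341443 to 52269372 UMIs (counted molecules), and 1808 to 14350 cells per library remained after filters. The replicate 1 libraries had fewer and deeper cells than the replicate 2 libraries in both intestines (median 6949.5 and 8810 UMIs against 2734.5 and 3881). Of their cell barcodes, 69 were shared between the replicate 2 libraries of the 2 intestines and 8 between the replicate 1 libraries, with 0 to 2 in other pairs. The file headers also give one Cell Ranger version for both replicate 1 libraries and another for both replicate 2 libraries, so a replicate number marks a shared processing batch, and the fit with the number as a block is given beside each SMC result whose call it changes. Cells were assigned by marker genes to FB, SMC, pericytes and endothelium, and FB further to PDGFRαhi FB, CD81+ FB and the remaining FB, with thresholds set after seeing the marker scores. Every SMC and pericyte marker was higher in its own gate than in the pooled other gates in all 4 libraries. The same markers set the gates, so this order follows from the gating and is no separate check. Gates were uneven. Small intestinal SMC numbered 37 and 80 cells (242756 and 154138 UMIs) against 230 and 683 in colon (1889504 and 2069977 UMIs), and pericytes 56 and 21 against 87 and 58. The small intestinal replicate 2 gates stood apart. There 26 cells lay within 0.1 of the SMC score threshold on either side, where 104 lay at or above it. For pericytes these counts were 18 and 31. That library gave 1 endothelial cell, so endothelium was not tested. Levels below are UMIs scaled to 1000000 UMIs of the gate (CPM), always in the order replicate 1, replicate 2, and intervals and limits cover counting error only. The limit given for a count of 0 is 3 UMIs, and the upper end of an exact interval lies somewhat higher. A fall in cells of one kind within a gate and less RNA per cell cannot be told apart in such sums.

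In FB, the selected contrast, both colonic libraries exceeded both small intestinal libraries for all 10 genes, as the choice of genes fixes. Adam23 stood at 112 and 87.1 CPM in colonic FB and at 5.70 and 4.63 in small intestinal FB. Lgals3 was at 105 and 131 against 4.77 and 3.49. Stmn2 was at 101 and 130 against 0.311 and 0.0506, where the small intestinal values rest on 5 UMIs in 49152872.

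Fold differences over pooled UMIs ran from 5.87 for Emilin2 (95% exact interval 5.18 to 6.66) to 1197 for Stmn2 (513 to 3689). Between these lay Fez1 (9.06), Rcan2 (15.4), Adam23 (19.4), Cdh13 (30.7), Lgals3 (33.1), Paqr5 (40.2), Ptprr (81.5) and Cd109 (120). Pooled small intestinal FB levels were highest for Emilin2 (5.82 CPM) and Adam23 (4.84 CPM).

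What remained in small intestinal FB was unevenly placed. Adam23 had 0 UMIs in PDGFRαhi FB of both small intestinal libraries but 5.76 and 8.40 CPM in CD81+ FB. Emilin2 was at 24.3 and 15.1 CPM in small intestinal CD81+ FB, where colon had 61.9 and 86.2. Cdh13 was at 21.8 and 7.99 CPM in small intestinal PDGFRαhi FB, where colon had 142 and 104. So the FB class with the highest level of Emilin2, and that with the highest level of Cdh13, was the same in both intestines. The plot of levels by class shows this for each gene.

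**Figure D1:**
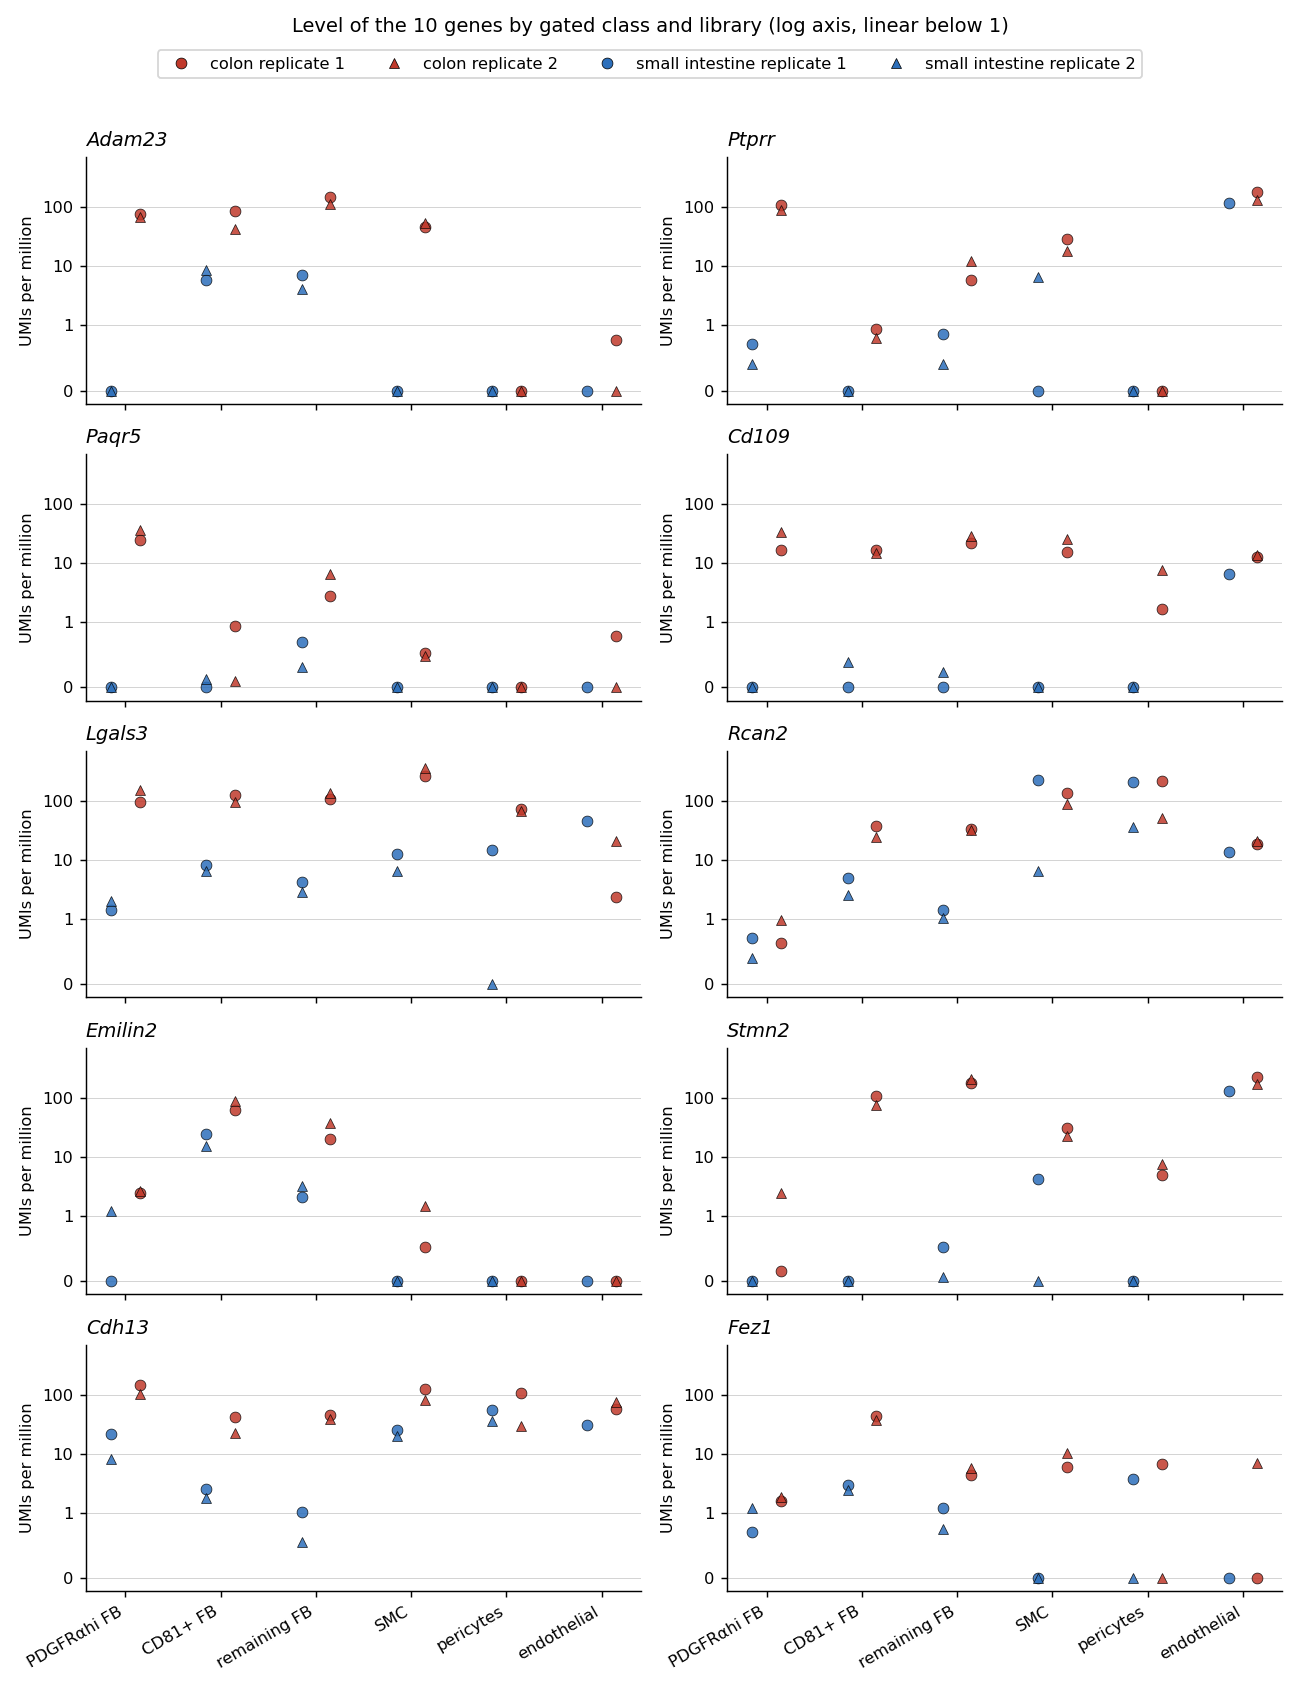
CPM of each of the 10 genes (vertical, log axis that is linear below 1) in 6 gated classes (horizontal), with red points for colon, blue for small intestine, circles for replicate 1 and triangles for replicate 2, and the single endothelial cell of small intestine replicate 2 left out. Lgals3 in colonic SMC reached 258 and 366, while Rcan2 in SMC and pericytes and Ptprr and Stmn2 in endothelium were high in small intestine replicate 1 as well.

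Within colonic FB the 10 genes marked different classes. Tests compared pairs of FB classes inside the colon with library as a block (edgeR quasi-likelihood, Benjamini-Hochberg adjustment over 12736 genes, called at adjusted p under 0.05 with a log2 fold change beyond 1.5). The genes were chosen on the colon over small intestine difference and not on differences between FB classes, although a gene high in one class enters the FB sum. Of 10 members, 6 were called between PDGFRαhi FB and the remaining FB, where 9.25% of all genes were. Between CD81+ FB and the remaining FB 3 were called (background 4.19%), and between PDGFRαhi and CD81+ FB 7 were (background 13.5%).

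Ptprr and Paqr5 rose in PDGFRαhi FB, the subset that lies closest to the epithelium. Ptprr was at 106 and 88.7 CPM there, against 0.932 and 0.808 in CD81+ FB and 5.74 and 12.2 in the remaining FB. Paqr5 was at 24.7 and 35.4, against 0.932 and 0.101, and 2.75 and 6.51. The log2 fold change over CD81+ FB was 6.71 (SE 0.55, adjusted p = 0.000754 by edgeR) for Ptprr and 6.87 (SE 0.46, adjusted p = 2.56e-07) for Paqr5. Cdh13 was also highest in PDGFRαhi FB, by 1.87 over CD81+ FB (SE 0.13, adjusted p = 1.52e-07). Over the remaining FB its log2 fold change of 1.45 fell just short of the 1.5 required.

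Stmn2, Rcan2, Emilin2 and Fez1 were lower in PDGFRαhi FB than in either other class. Stmn2 had 0.159 and 2.44 CPM in PDGFRαhi FB, 108 and 74.5 in CD81+ FB, and 175 and 206 in the remaining FB. Rcan2 had 0.638 and 0.975 CPM in PDGFRαhi FB, where both other classes were between 24.3 and 37.7. Fez1 belonged mainly to CD81+ FB, a subset found beneath the crypts and in the submucosa, at 43.8 and 37.2 CPM against 4.30 and 5.73 in the remaining FB, a log2 fold change of 2.98 (SE 0.17, adjusted p = 1.05e-07 by edgeR).

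Adam23, Cd109 and Lgals3 met the rule in none of the 3 pairs. Their largest difference was that of Adam23, which was 1.09 lower on the log2 scale in CD81+ FB than in the remaining FB (SE 0.19, adjusted p = 0.0105 by edgeR). For Lgals3 the 3 log2 fold changes were between -0.10 and 0.04, each with an SE of 0.26 to 0.28.

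**Figure D2:**
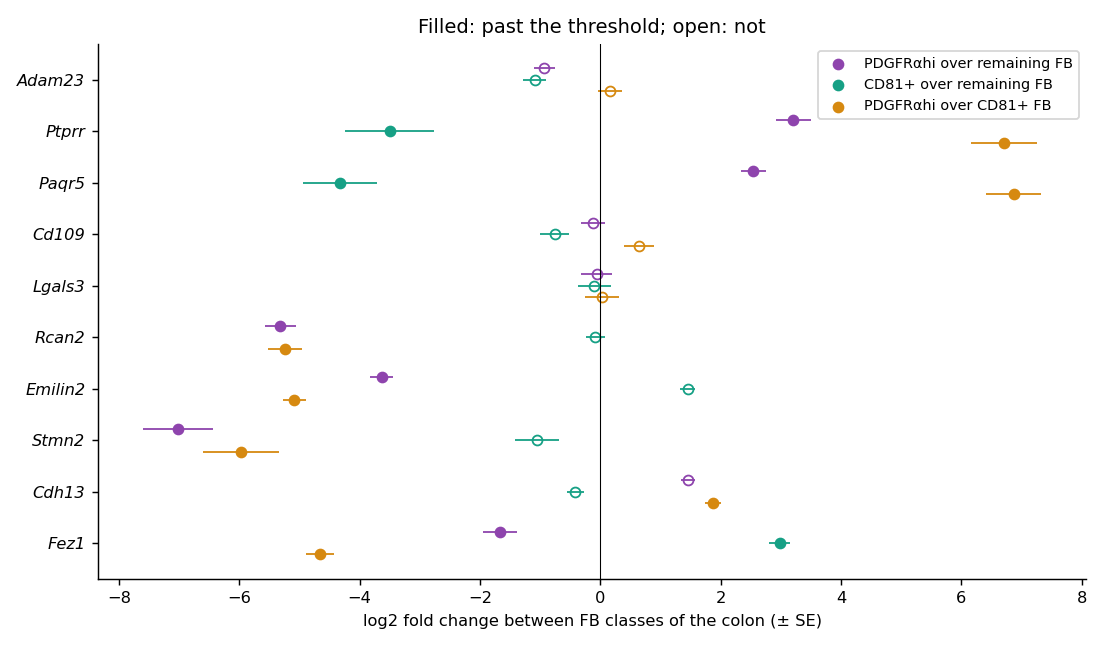
Log2 fold change (horizontal, with SE bars) between FB classes of the colon for each of the 10 genes (vertical), coloured by pair, with filled points for calls. Ptprr and Paqr5 lie far to the right for PDGFRαhi over CD81+ FB (6.71 and 6.87), Stmn2, Rcan2, Emilin2 and Fez1 lie to the left, and Lgals3 lies between -0.10 and 0.04 in all 3 pairs.

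The genes also differed in how their UMIs spread over single FB of the colon. Adam23 UMIs were found in 44.7% and 23.6% of colonic FB, with a mean of 2.40 and 1.48 UMIs in each such cell. Stmn2 reached a like total through far fewer cells: 9.67% and 11.1% of FB held a UMI, at 9.96 and 4.69 UMIs per cell. Cells with 5 or more Stmn2 UMIs held 91.4% and 71.8% of all its UMIs in FB, against 30.04% and 3.79% for Adam23.

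Ptprr came between them, at 3.53 and 1.66 UMIs per cell with a UMI. The libraries differ in depth, so cells were also thinned to 1000 UMIs. Adam23 was then seen in 8.82% and 7.51% of colonic FB and in 0.414% and 0.427% of small intestinal FB. Among PDGFRαhi FB it was seen in 5.59% and 5.01%, and among the remaining FB of the colon in 12.5% and 10.0%. Stmn2 was seen in 9.29% and 10.0% of the remaining colonic FB at this depth, and in 0 and 0.123% of PDGFRαhi FB. Few immune and plasma cells were caught for comparison. Of 96 in small intestine replicate 1, none held an Adam23 or Stmn2 UMI at 1000 UMIs, which allows a share of up to 3.12%. Unthinned, those 96 cells held 4 Adam23 UMIs (2.28 CPM, where small intestinal FB of that library had 5.70) and 0 Stmn2 UMIs. The 6 such cells in the colon were too few to set a background there.

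SMC of the colon carried several of the 10 genes. Lgals3 was at 258 and 366 CPM in colonic SMC (488 and 757 UMIs), above its level in colonic FB, and at 12.4 and 6.49 in small intestinal SMC (3 and 1 UMIs). Both colonic libraries lay above both small intestinal ones. Pooled over libraries the ratio was 31.2 (95% exact interval 12.2 to 115), near the 33.1 of FB. Lgals3 rose in the fit, with a log2 fold change of 5.0 (SE 0.54, adjusted p = 0.0222 by edgeR over 8808 genes). Of the 10 genes 7 passed the low-count filter and Lgals3 was the 1 called higher in colon, where 0.0568% of all genes were. The same fit by DESeq2 called Lgals3 and Adam23, with 73 of 8808 genes called in either direction. With the replicate block in edgeR, 5 of the 7 were called higher (Lgals3, Adam23, Cdh13, Cd109 and Stmn2), where 1.46% of all genes were. Lgals3, Adam23, Cd109, Stmn2 and Ptprr had too few small intestinal UMIs to pass the filter except through the colonic libraries. These counts of called members are therefore a description.

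When cells above the median share of FB marker UMIs in each SMC gate were left out (the purer gate), Lgals3 stood at 213 and 348 CPM in colon and 16.4 and 0 in small intestine, and was no longer called (log2 fold change 4.83, adjusted p = 0.384 by edgeR, with 0 of 6632 genes called). Without small intestine replicate 2 the log2 fold change of Lgals3 in the full gates was 4.67, from a fit with 1 small intestinal library. Thinned to 1000 UMIs, Lgals3 was seen in 19.1% and 30.5% of colonic SMC and in 2.70% and 0 of small intestinal SMC (1 of 37 and 0 of 80 cells, the latter allowing a share of up to 3.75%).

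Adam23 was at 45.5 and 52.7 CPM in colonic SMC (86 and 109 UMIs) and had 0 UMIs in SMC of both small intestinal libraries. Taking 3 UMIs over the pooled small intestinal gates as the limit (7.56 CPM), its pooled colonic level was 6.52 times that limit. In the main edgeR fit Adam23 did not pass the adjusted threshold (adjusted p = 0.0862), and with the replicate block it passed (adjusted p = 0.000179). Without a block it also passed by DESeq2 (adjusted p = 0.04999) and by edgeR with no low-count filter (adjusted p = 0.00306). Cd109 was at 15.3 and 25.1 CPM against 0 UMIs, with a pooled colonic level of 2.71 times the same limit (adjusted p = 0.371, and 0.0317 with the replicate block, by edgeR). Cdh13 was at 123 and 81.6 CPM against 24.7 and 19.5 (log2 fold change 2.23, SE 0.48, adjusted p = 0.174 by edgeR). With the replicate block its log2 fold change was 2.26 (adjusted p = 0.000645) and it was called.

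Ptprr and Stmn2 had lower levels in SMC. Ptprr was at 29.1 and 17.9 CPM in colon, with 1 UMI in the small intestine (ratio 9.22, 95% exact interval 1.61 to 368). Stmn2 was at 30.7 and 22.2 CPM, again with 1 UMI in the small intestine (ratio 10.4, interval 1.83 to 416). Neither passed without a block, at adjusted p = 0.541 and 0.371 by edgeR, and with the replicate block Stmn2 passed (0.0331) while Ptprr did not (0.0718). In the purer SMC gate Stmn2 was at 4.27 and 10.9 CPM in colon (4 and 11 UMIs), against 8.22 and 0 in small intestine (1 and 0 UMIs), so the groups overlapped, while Ptprr stood at 29.9 and 27.7 against 0 and 12.6.

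Fez1, Paqr5 and Emilin2 were too low in SMC to be tested. Fez1 had 11 and 21 UMIs in colonic SMC and 0 in small intestinal SMC. Paqr5 had 1 UMI in each colonic SMC gate and Emilin2 had 1 and 3, so these were at or near the counting limit there. In the pooled small intestinal SMC gates the limit of 3 UMIs is 7.56 CPM, and the exact interval of a count of 0 reaches 9.29 CPM. Colonic Fez1 (8.08 CPM pooled) lay between these, and so inside the interval. Both colonic libraries were above both small intestinal ones for 9 of the 10, where 21.0% of all genes with a UMI showed that order. For 5 of the 9 (Adam23, Cd109, Fez1, Paqr5 and Emilin2) the order was set by counts of 0 in much smaller gates, and for Paqr5 and Emilin2 the colonic level was itself below the limit of 3 UMIs.

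Rcan2 was the gene that did not show this order. It was high in SMC of small intestine replicate 1, at 227 CPM (55 UMIs), as in colonic SMC at 133 and 89.4. In small intestine replicate 2 only 1 UMI was counted (6.49 CPM). The log2 fold change was -0.13 (SE 1.06, adjusted p = 0.999 by edgeR), and its sign depended on which library was left out, from -1.01 to 4.18. Rcan2 in SMC was thus as high in one small intestinal library as in colon, while in FB it was at 21.6 and 22.9 CPM in colon and 2.18 and 1.29 in small intestine.

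**Figure D3:**
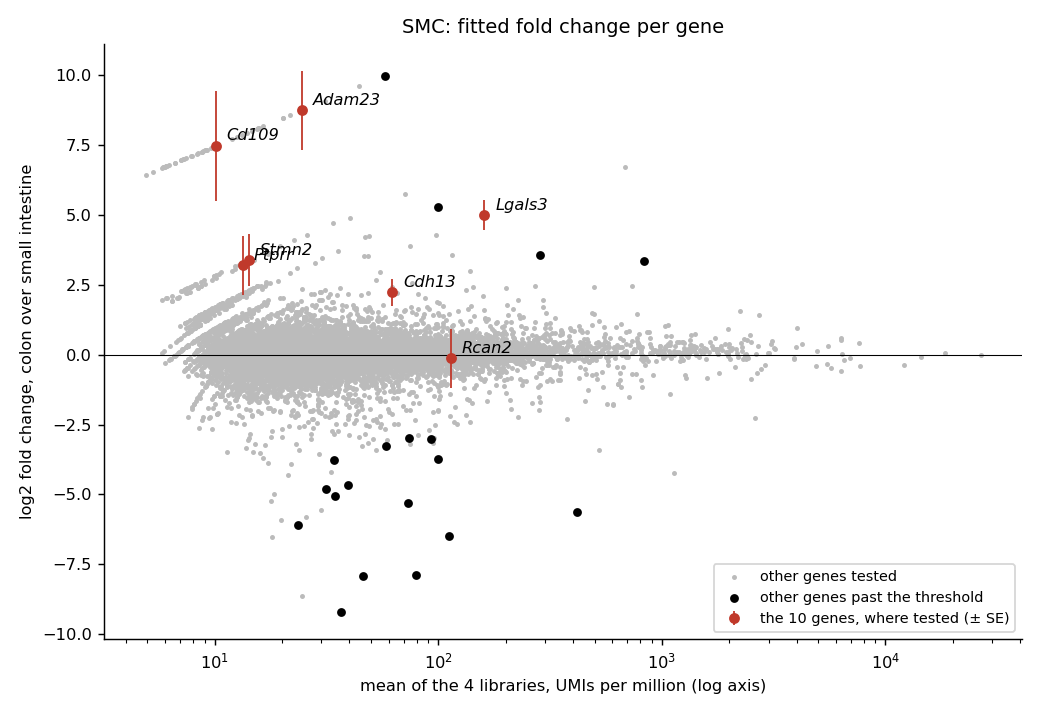
Fitted log2 fold change in SMC, colon over small intestine (vertical), against mean CPM of the 4 libraries (horizontal, log axis) for 8808 genes, with the 7 tested members in red (SE bars) and other called genes in black. Lgals3 stands at 5.0, Adam23 and Cd109 lie on the upper edge formed by genes with 0 UMIs in small intestinal SMC, where the fitted value is no bound, and Rcan2 lies at -0.13.

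Genes typical of FB were also counted in the SMC gates. Whether this RNA came from FB or was made by SMC was not tested. Over 6 FB genes used in no gate (Pcolce, Mmp2, Serpinf1, Dpt, Fbln1 and Loxl1), the level in colonic SMC was 1.98% to 34.2% of that in FB of the same library, with medians of 13.5% and 15.8%. In small intestinal SMC the medians were 12.9% and 17.6%. In colonic SMC, Lgals3 stood at 246% and 279% of its FB level, Rcan2 at 618% and 391%, and Cdh13 at 152% and 165%.

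Cd109 (80.3% and 95.5%), Fez1 (69.8% and 85.8%), Ptprr (68.2% and 65.5%) and Adam23 (40.6% and 60.4%) were below FB but above all 6 FB genes. Stmn2 at 30.4% and 17.1% fell within or at the edge of the range of those genes, and Paqr5 (4.94% and 4.12%) and Emilin2 (2.84% and 3.63%) were at its lower end. In the purer SMC gate Paqr5 and Emilin2 had 0 UMIs in both colonic libraries. Stmn2 was reduced there as given above. Adam23 stood at 37.3 and 60.3 CPM in that gate of the colon, Cd109 at 18.1 and 23.7, and Cdh13 at 111 and 88.9 against 32.9 and 25.1 in small intestine.

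**Figure D4:**
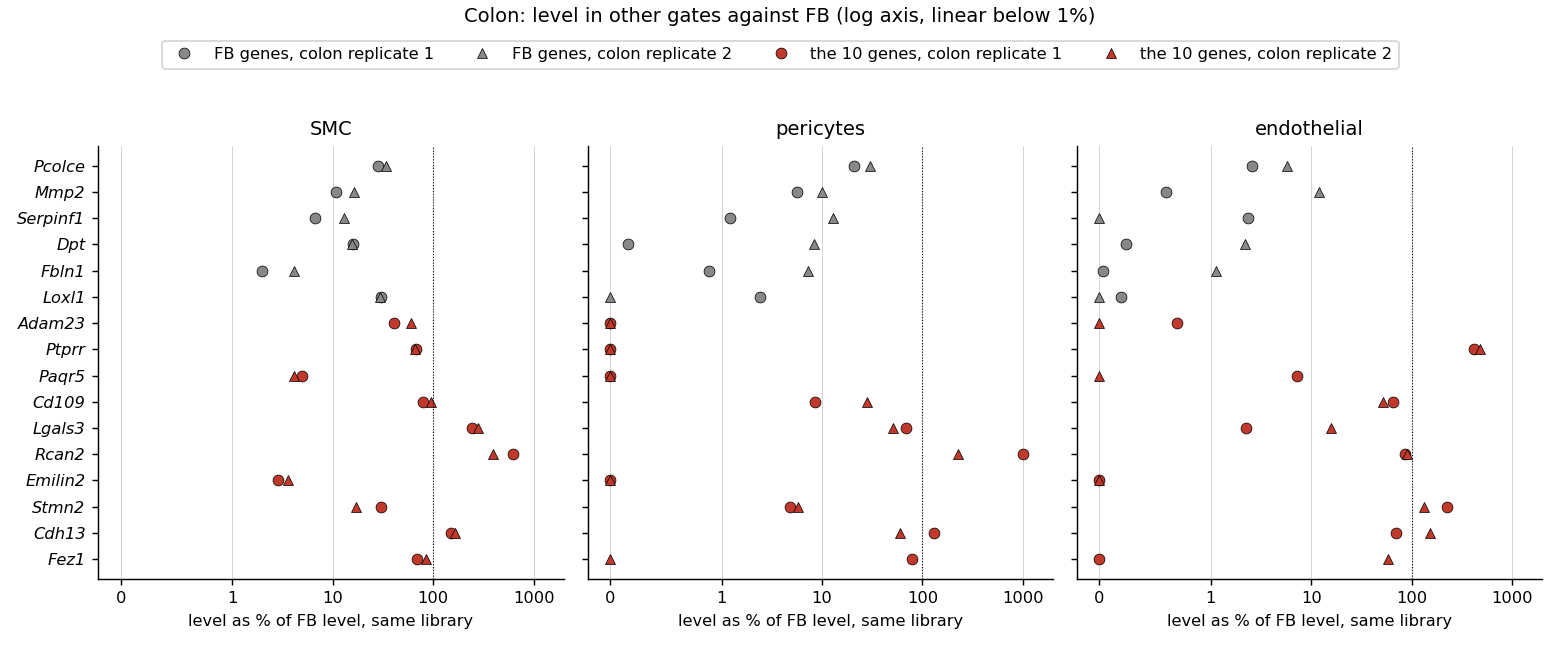
Level in colonic SMC, pericytes and endothelial cells as a percentage of the FB level in the same library (horizontal, log axis that is linear below 1%), for 6 FB genes in grey and the 10 genes in red, circles for replicate 1 and triangles for replicate 2, with the dotted line at 100%. In SMC, Lgals3, Rcan2 and Cdh13 lie to the right of the line. Adam23, Ptprr, Paqr5 and Emilin2 are at 0 in pericytes.

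Pericytes had no UMI of 4 of the 10 genes in either intestine. Adam23, Ptprr, Paqr5 and Emilin2 had 0 UMIs in all 4 pericyte gates, which allows up to 4.02 CPM in pooled colonic pericytes and up to 9.95 CPM in small intestinal ones. Cd109 had 1 UMI in each colonic library and Stmn2 had 3 and 1, and neither had any in the small intestine. Fez1 had 4 and 0 UMIs in colonic pericytes (5.35 CPM pooled) and 1 and 0 in small intestinal ones. For Adam23 this limit is far below the 45.5 and 52.7 CPM of colonic SMC, the other contractile class.

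Lgals3 was at 71.9 and 66.8 CPM in colonic pericytes (44 and 9 UMIs) and at 14.6 and 0 in small intestinal ones (4 and 0 UMIs). The pooled ratio was 5.35 (95% exact interval 1.97 to 20.3), and in the fit its log2 fold change was 2.43 (SE 0.86, p = 0.0182, adjusted p = 0.831 by edgeR). Without small intestine replicate 2 this log2 fold change was 2.18. Rcan2 was at 217 and 52.0 CPM in colon (133 and 7 UMIs) and at 209 and 35.7 in small intestine (57 and 1 UMIs). Its pooled ratio was 0.974 (0.712 to 1.35). Cdh13 was at 105 and 29.7 CPM (64 and 4 UMIs) against 54.9 and 35.7 (15 and 1 UMIs), with overlapping groups. The small intestinal levels of both genes thus rested on replicate 1. In the purer pericyte gate Cdh13 was at 18.7 and 30.4 CPM in colon against 41.4 and 0, Rcan2 at 390 and 91.1 against 331 and 73.3, and Lgals3 at 84.2 and 106 against 0 UMIs. Of the 3 members tested, edgeR called 0 higher in colon, where the background was 0 (0 of 3532 genes), and DESeq2 also called 0 members. By edgeR 1 member had an unadjusted p under 0.05, where 4.13% of all genes did. Both colonic libraries exceeded both small intestinal ones for 3 of 10 members against 22.0% of all genes with a UMI, and 2 of the 3 (Cd109 and Stmn2) had 0 UMIs in the small intestine.

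Endothelial cells held some of the same genes in both intestines. Ptprr was at 118 CPM in small intestine replicate 1 (186 UMIs in 343 cells) and at 179 and 130 CPM in colon (235 and 22 cells), above its level in colonic PDGFRαhi FB in these 3 libraries. Stmn2 was at 129 CPM in small intestine and 227 and 171 in colon. The pooled colon over small intestine ratios were 1.47 for Ptprr (95% exact interval 1.21 to 1.79) and 1.72 for Stmn2 (1.44 to 2.07), where the FB ratios were 81.5 and 1197. These intervals carry no replicate error, since only 1 small intestinal library had endothelial cells to compare.

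FB genes were low in the same cells. The 6 FB genes stood at 0.0302% to 2.56% of their FB level in endothelium of colon replicate 1, and at 0 to 11.9% in the 22 cells of replicate 2. Ptprr in colonic endothelium was at 419% and 477% of its FB level and Stmn2 at 225% and 132%. Thinned to 1000 UMIs, Ptprr was seen in 11.7% of small intestinal endothelial cells and in 13.6% and 9.09% of colonic ones (235 and 22 cells). The corresponding share was 0.0829% and 0.0356% in small intestinal FB.

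Cdh13, Rcan2 and Cd109 were also present in endothelium of both intestines. Cdh13 was at 30.6 CPM in small intestine and 56.0 and 75.4 in colon, Rcan2 at 13.4 against 18.7 and 20.6, and Cd109 at 6.37 against 12.4 and 13.7. Adam23, Paqr5 and Emilin2 were absent or nearly so, with 0 UMIs in the small intestine and 1, 1 and 0 UMIs in colon, so these 3 were below the limit of 2.10 CPM that a count of 0 sets in pooled colonic endothelium. Fez1 likewise had 1 UMI in colonic endothelium.

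Lgals3 ran opposite to FB in endothelium. It was at 44.6 CPM in small intestine replicate 1 (70 UMIs) and at 2.33 and 20.6 CPM in colon (3 UMIs in each library). The pooled ratio was 0.0942 (95% exact interval 0.0334 to 0.215). Immune and plasma cells of the small intestine also carried Lgals3, at 40.0 CPM in replicate 1.

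By class, then, the 10 genes ordered as follows. Paqr5 and Emilin2 were at or near the counting limit in SMC, pericytes and endothelium. Adam23 and Cd109 were also counted in SMC of the colon and not in SMC of the small intestine. Both were called with the replicate block and not in the main fit. Adam23 was also called without a block by DESeq2 and with no low-count filter, while Cd109 was not. In the filtered fits both passed the low-count filter only through the colonic libraries. Cd109 had low endothelial levels. Fez1 in colonic SMC was too low to be set apart from the small intestine. Lgals3 was colon-high in FB and SMC, with pericytes in the same direction but not called. Ptprr and Stmn2 were in endothelium of both intestines, and in SMC of the colon with 1 UMI each in the small intestine. Stmn2 was called in SMC with the replicate block, but the groups overlapped in the purer gate. Rcan2 was in SMC and pericytes of both. Cdh13 was in all 3 classes of both. In SMC it was higher in colon (123 and 81.6 against 24.7 and 19.5 CPM), called with the replicate block and with no low-count filter but not in the main fit. Small intestinal endothelium rested on 1 library. Small intestinal levels of Rcan2 rested on replicate 1 in SMC (55 UMIs against 1) and in pericytes (57 against 1), as did pericyte levels of Cdh13 (15 against 1). Pericyte levels of Cdh13 in colon replicate 1 were lower in the purer gate (105 against 18.7 CPM).

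No protein relative of the 10 was called higher in colon in FB, any FB class, SMC or pericytes. Of 53 relatives listed by family (other ADAM proteins, cadherins, galectins, progestin and adiponectin receptors, complement-like proteins and others), 36 could be tested in FB. The edgeR fit called 0 higher in colon, where 0.273% of all genes were. At an unadjusted p under 0.05 there were 1 higher and 8 lower in colon, where 11.7% of all genes passed in either direction. The 1 relative called lower, against 0.230% of all genes, was C4b, a complement component distantly related to Cd109. It was at 1121 and 1075 CPM in small intestinal FB and 160 and 156 in colonic FB (log2 fold change -2.86, SE 0.24, adjusted p = 0.0422 by edgeR), the reverse of Cd109 (0 and 0.253 against 19.1 and 26.3).

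In PDGFRαhi FB 2 of 29 relatives tested were lower in colon, where 0.779% of all genes were, and edgeR called 0 higher (background 0.937%). At an unadjusted p under 0.05 there were 1 higher and 8 lower by edgeR, where 13.01% of all genes passed in either direction. Both called genes are relatives of Adam23. Adam11 fell from 40.8 and 44.3 CPM in the small intestine to 2.71 and 2.83 CPM in the colon, a log2 fold change of -3.78 (SE 0.31, adjusted p = 0.0180 by edgeR). Adam12 stood at 45.8 and 49.9 against 6.06 and 4.78 (log2 fold change -3.01, SE 0.29, adjusted p = 0.0209). In the same cells Adam23 had 0 UMIs in both small intestinal libraries and stood at 75.6 and 68.6 CPM in colon.

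In the remaining FB, 1 of 34 relatives tested was lower in colon (background 0.145%, and 0.183% for higher), namely C3, the central complement component, at 1698 and 1388 CPM against 149 and 150 (log2 fold change -3.40, adjusted p = 0.0426 by edgeR). An unadjusted p under 0.05 was found for 1 higher and 7 lower, and for 10.4% of all genes in either direction. In CD81+ FB 0 of 26 were called in either direction by edgeR, with backgrounds of 0.132% higher and 0.228% lower. There 4 higher and 2 lower had an unadjusted p under 0.05, as did 8.72% of all genes in either direction. Rcan1, the nearest relative of Rcan2, was at 93.5 and 83.8 CPM in small intestinal FB and 213 and 222 in colonic FB, and was not called (adjusted p = 0.125 by edgeR). In SMC, 24 relatives were tested. At an unadjusted p under 0.05 there were 0 higher and 3 lower by edgeR, where 6.85% of all genes passed in either direction. Of the 24, edgeR and DESeq2 each called 0 higher and 1 lower (background 0.170%), again C4b. Its level in SMC was 11.4% and 22.9% of the FB level in small intestine and 9.24% and 7.42% in colon, inside the range of the FB genes above. In pericytes 0 of 9 were called by either tool and 0 had an unadjusted p under 0.05, where 4.13% of all genes did.

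Genes with the most similar profiles were sought over 24 profiles (6 classes in 4 libraries, including the single small intestinal endothelial cell) among 10501 genes, by Pearson correlation of log2(CPM + 5). The profiles share libraries and depth, so r is a description. The members were also chosen as higher in colonic FB, and FB classes of both intestines are among the profiles. Likeness to genes that are themselves higher in colonic FB is therefore partly fixed by that choice. Adam23 was most like Ociad2 (r = 0.93) and Prrx2 (r = 0.92), Lgals3 like Isl1 (r = 0.92) and Hoxa10 (r = 0.89), and Cd109 like Hoxd11 (r = 0.86) and Hoxa10 (r = 0.83). Hoxa10, a posterior homeobox gene, had 0 UMIs in all small intestinal profiles. Its colonic levels were 75.3 and 59.4 CPM in PDGFRαhi FB, 121 and 111 in SMC, 80.0 and 66.8 in pericytes and 14.0 and 6.86 in endothelium.

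Ptprr was closest to Tspan8 (r = 0.92) and Paqr5 to Spp1 (r = 0.97) and Slpi (r = 0.96). Tspan8 was at 120 CPM in small intestinal endothelium and at 39.7 and 41.2 in colonic endothelium. Spp1 was at 31.1 and 101 CPM in colonic PDGFRαhi FB and had 0 UMIs in that class of the small intestine. Stmn2 was closest to Thy1 (r = 0.79), Rcan2 to Sort1 (r = 0.86), Emilin2 to Phgdh (r = 0.91), Cdh13 to Slc25a3 (r = 0.79) and Fez1 to Emilin2 (r = 0.73). Of the 20 pairs of a gene and its 2 nearest, 2 were the same when ranks were used.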

How the data were processed

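Cell Ranger was run by the authors on droplet reads against mm10. File headers give version 3.0.2 in replicate 1 and 3.1.0 in replicate 2. What they deposited are UMI counts, whole numbers for every gene in every cell, without normalization. Either a 3′ or a 5′ kit was used, and its assignment to libraries is not given in the sources used here. A 3′ and a 5′ library count different ends of a transcript, so a level can differ between libraries with the kit. Replicates are the labelled samples, each from pooled mice. Same-numbered libraries deviated together from their group means, with a correlation of 0.47 in SMC, 0.40 in pericytes and 0.79 in FB.

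Cells needed 500 genes, 1000 UMIs and a mitochondrial share of 10% or less. Doublets were removed at a scrublet score above 0.2 in each library (1.42% to 5.98%), a fixed threshold set because the automatic one failed in one library. Classes were gated on mean log-normalized levels of marker lists. The 10 genes, lists and thresholds were chosen with earlier results of these data known. UMIs were summed per library and class and tested with edgeR 4.0.16 (quasi-likelihood, TMM, filterByExpr, no block between intestines), where each library had 10 cells of the class. DESeq2 1.42.0, other filters, Leiden clusters (scanpy 1.11.5), purer gates, a replicate block and leaving out libraries were alternatives. On simulated counts with a log2 change of 3, the test recovered 76.6% of changed genes in SMC and 79.3% in pericytes. Genes named are the 10, called relatives and the 2 nearest profiles, plus uncalled relatives chosen after their values were seen. All 28692 gene rows have names in the files, and 28416 matched GENCODE.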

Additional observations from a re-analysis of the deposited data

Results flagged for a closer look

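Lgals3 in endothelial cells was at 44.6 CPM in small intestine replicate 1, above both colonic libraries (2.33 and 20.6), while every FB and SMC library moved the other way. The difference between classes was not tested, since small intestine replicate 2 had 1 endothelial cell.

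Interstitial cells of Cajal, pacemaker cells outside the comparisons above, were gated in colon only (11 and 34 cells, 252488 UMIs). The limit set by a count of 0 was 11.9 CPM there. Over both libraries Fez1 stood at 87.1 CPM (11 UMIs in each library), where colonic FB had 8.34 and 11.8 CPM. Lgals3 was at 87.1 CPM with 18 and 4 UMIs, Cdh13 at 83.2 CPM with 14 and 7 UMIs and Cd109 at 39.6 CPM with 6 and 4 UMIs. No such cells were gated in the small intestine, so no comparison between intestines was made.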

How the results depend on the processing

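In SMC, Lgals3 was called under the main setting and, except in the purer gate, under all fitted alternatives that kept 2 libraries per intestine. The count of members called higher in colon was 1, and became 2 with DESeq2, 3 with no low-count filter and 0 in the purer gate. With 1 library left out, which leaves 1 library in a group, the log2 fold change of Lgals3 lay between 4.67 and 5.67. All genes called in SMC numbered 20, against 73 with DESeq2, 120 with no low-count filter and 0 in the purer gate (6632 genes tested). In pericytes no alternative that kept 2 libraries per intestine called a member, while all genes called went from 0 to 4 with DESeq2 and 7 with no filter. The sign of Rcan2 changed: in SMC its log2 fold change was -0.13 and ran from -1.01 to 4.18 without a library, and in pericytes it was -0.08, became 1.83 with Leiden clusters and 0.088 in the purer gate, and ran from -1.62 to 2.18 without a library. Within colonic FB, 16 calls were made over 3 pairs, and alternatives gave 14 to 21, of which at least 14 were shared. The mean share of colonic FB with a UMI of a member was 4.0% at 1000 UMIs, 7.24% at 2000, 15.6% unthinned and 4.09% with doublets kept. Of 20 nearest-profile pairs, 10 were shared with a pseudocount of 1 and 2 with ranks. The cause of these changes was not tested.

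Same-numbered libraries shared a Cell Ranger version, though the labels do not say that a number marks an experiment. With a replicate block, 5 members were called in SMC (Lgals3, Adam23, Cdh13, Cd109 and Stmn2) and 277 genes in all, and in pericytes 0 members and 80 genes. Rcan2 then had a log2 fold change of 0.10 in SMC and 0.12 in pericytes.

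Not run were endothelium (1 cell in small intestine replicate 2), SMC by Leiden clusters (0 cells in that library), pericytes at 1000 genes per cell, and FB classes with 1 colonic library.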
